A study of Mus musculus with 2 samples.

Results

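The 10 genes described here are complement, lysosome and lipid genes of islet macrophages: C1qa, C1qb, C1qc, C3, Csf1r, Lyz2, Ctsd, Apoe, Fabp5 and Pla2g2d, out of 27998 genes in the deposited matrices. Each name was found once in the gene column of both matrices. They were followed in the macrophages, defined as cells with at least 10 UMIs (unique molecular identifiers, 1 for each captured transcript) summed over the 3 C1q genes and with Ins1 and Ins2 below 15% of UMIs, and as traces in beta and alpha cells. C1q counts therefore chose the macrophages, and the 10 genes were themselves chosen with their levels in these libraries known, so their ratios in macrophages are descriptions and carry no test.

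Islets, the hormone-secreting cell clusters of the pancreas, were dissociated to single cells and sequenced with 10x 3 prime chemistry. The first library, βTG (written betaTG from here on), came from islets that carry a miR-503 transgene labelled as specific to beta cells. The second, WT, came from wild type islets, and both were from C57BL/6 mice at postnatal day 70. The sources used here do not give the promoter that drives the transgene, nor the sex or number of mice. With 1 library a genotype, no difference could be tested across animals: every interval below covers counting error only, and a difference between genotypes cannot be told apart from a difference between these libraries.

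The libraries held 109243270 UMIs in betaTG and 104677537 in WT, over 4158 and 4540 barcodes, of which 4143 and 4520 passed the filter on genes, UMIs and mitochondrial share. They shared 25 barcodes, 0 of them macrophages in either library. Xist, the transcript of the inactive X chromosome, was seen in 3 of 41 betaTG macrophages and in 0 of 69 WT macrophages, and transcripts of 4 Y-linked genes in 20 and 40. The sex makeup of the libraries therefore differed, and its part in the results was not tested. The transgene itself could not be checked, because 3 prime libraries of polyadenylated transcripts do not count the mature miRNA.

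Resident islet macrophages sit beside the endocrine cells and take up their secretory granules and debris. C1q, assembled from the products of C1qa, C1qb and C1qc, starts the classical complement pathway on its target surface, and C3 is the component on which the pathways converge. CSF1R is the growth factor receptor that macrophages need to survive, lysozyme (Lyz2) and cathepsin D (Ctsd) are degradative enzymes of granules and lysosomes, and ApoE, FABP5 and the secreted phospholipase encoded by Pla2g2d handle lipids.

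The 3 C1q genes lie side by side on the minus strand of mouse chromosome 4 (GRCm38, the assembly that UCSC names mm10): C1qb at chr4:136880129-136886187, C1qc at chr4:136889804-136893065 and C1qa at chr4:136895917-136898803, with no other annotated gene among the 18675 bases from end to end. Of the others, C3 is at chr17:57203970-57228136, Lyz2 at chr10:117277331-117282321, Ctsd at chr7:142375911-142388038, Apoe at chr7:19696109-19699188, Fabp5 at chr3:10012548-10016607 and Pla2g2d at chr4:138775735-138782046.

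The transgene's miRNA is shown with its seed, bases 2 to 8, in capitals. Promoters are shown for a pair of C1q genes, whose counts moved together in both libraries, and for Lyz2, Ctsd and Pla2g2d, whose counts moved together in betaTG macrophages. Each window holds 250 bases before and 50 after the RefSeq start on GRCm38.p6, printed 5′ to 3′ on the gene's strand. Capitals mark GAGGAA, the core bound by the myeloid factor PU.1, TGCTGA, the core bound by MAF factors, and CACGTG, the E-box core of lysosomal gene promoters, each searched on both strands and none overlapping another here.
mmu-miR-503-5p (chrX:53054027-53054049, minus strand): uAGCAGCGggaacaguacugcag
C1qb (chr4:136886151-136886450, minus strand): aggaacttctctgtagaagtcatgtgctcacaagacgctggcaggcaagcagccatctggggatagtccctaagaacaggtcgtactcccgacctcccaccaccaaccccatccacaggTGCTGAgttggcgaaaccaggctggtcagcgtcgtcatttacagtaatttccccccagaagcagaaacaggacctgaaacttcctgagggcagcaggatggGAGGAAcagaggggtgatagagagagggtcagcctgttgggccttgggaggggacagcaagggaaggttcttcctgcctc
C1qc (chr4:136892865-136893164, minus strand): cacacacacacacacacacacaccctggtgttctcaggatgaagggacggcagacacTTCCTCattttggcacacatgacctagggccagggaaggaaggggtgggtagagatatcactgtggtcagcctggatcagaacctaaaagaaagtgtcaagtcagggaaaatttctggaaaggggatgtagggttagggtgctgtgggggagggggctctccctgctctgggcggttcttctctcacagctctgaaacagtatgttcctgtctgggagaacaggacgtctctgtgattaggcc
Lyz2 (chr10:117282223-117282522, minus strand): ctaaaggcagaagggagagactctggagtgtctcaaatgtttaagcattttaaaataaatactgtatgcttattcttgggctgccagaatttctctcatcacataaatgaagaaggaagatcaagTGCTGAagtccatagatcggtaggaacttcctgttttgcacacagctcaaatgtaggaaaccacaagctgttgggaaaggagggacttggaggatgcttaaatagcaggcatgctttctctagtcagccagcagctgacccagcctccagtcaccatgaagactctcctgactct
Ctsd (chr7:142387778-142388077, minus strand): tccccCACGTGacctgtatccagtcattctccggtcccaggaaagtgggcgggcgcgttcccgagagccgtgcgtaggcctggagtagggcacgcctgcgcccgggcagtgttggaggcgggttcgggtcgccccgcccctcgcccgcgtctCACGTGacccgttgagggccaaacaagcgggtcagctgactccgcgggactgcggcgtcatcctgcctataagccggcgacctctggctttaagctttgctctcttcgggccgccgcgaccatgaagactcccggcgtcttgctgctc
Pla2g2d (chr4:138775485-138775784, plus strand): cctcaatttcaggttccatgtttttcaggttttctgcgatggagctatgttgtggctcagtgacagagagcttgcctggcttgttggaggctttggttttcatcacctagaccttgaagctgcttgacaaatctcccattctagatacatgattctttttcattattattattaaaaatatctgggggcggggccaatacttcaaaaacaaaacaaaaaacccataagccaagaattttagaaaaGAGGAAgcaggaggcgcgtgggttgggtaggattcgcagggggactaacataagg

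Relative to the start, the C1qb window holds GAGGAA at -30 and TGCTGA at -131, and the C1qc window holds TTCCTC, the reverse complement of GAGGAA, at -193. The Lyz2 window holds TGCTGA, the Pla2g2d window GAGGAA, and the Ctsd window holds CACGTG at 2 places. Among all 32851 promoter windows of the same length, 28.3% hold GAGGAA, 19.5% TGCTGA and 7.15% CACGTG on either strand. The 7 of the 10 genes that have a window have 9 windows, of which 5, 3 and 1 hold the 3 motifs, from 4, 3 and 1 genes. A match is a run of letters and not a measured binding site.

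The gate found 41 macrophages in betaTG, which is 0.990% of kept cells (exact 95% interval 0.711 to 1.34%), and 69 in WT, which is 1.53% (1.19 to 1.93%). Their depth was alike, with a median of 10266 UMIs per cell in betaTG and 10849 in WT. The C1q sum ran from 20 to 250 UMIs with a median of 81 in betaTG, and from 10 to 320 with a median of 84 in WT. Cd68, a lysosomal protein of phagocytes, had a UMI in 100% and 89.9% of these cells, Tyrobp, a myeloid adaptor, in 100% and 97.1%, and Adgre1, which encodes F4/80, in 53.7% and 63.8%. H2-Ab1, an MHC class II gene, was seen in 100% of both, and Itgax, which encodes CD11c, in 34.1% and 46.4%. Of 6 neutrophil markers, Ly6g, S100a9, Retnlg and Mmp9 were at 0 in both, S100a8 had 1 UMI in betaTG and 0 in WT, and Csf3r was seen in 24.4% of betaTG and 13.0% of WT macrophages. Of 5 monocyte markers, Chil3 and Fn1 were at 0 in both, Ccr2 was seen in 19.5% of betaTG and 15.9% of WT macrophages, Plac8 in 4.88% and 5.80%, and Ly6c2 in 0% and 2.90%. Among further macrophage markers, Fcer1g was seen in 100% and 98.6% and Ctss in 100% and 95.7%. Others were rarer, with Cx3cr1 in 34.1% and 14.5%, Itgam in 17.1% and 5.80% and Mrc1 in 4.88% and 2.90%. Of 7 dendritic cell markers, Siglech was seen in 9.76% of betaTG and 26.1% of WT macrophages. Ccr7 was seen in 9.76% and 14.5%, and the rest in at most 5.80%. By Cd68 and Tyrobp, though not by Cx3cr1, Itgam or Mrc1, the label macrophage held for most of the gated cells.

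The label did not hold for all of them. Just inside the limit, 8 WT cells and 0 betaTG cells had a C1q sum of 10 to 15. Of these, 3 WT cells had 10, 13 and 15 C1qa UMIs and none of C1qb, C1qc, Csf1r, Cd68 or Lyz2, and glucagon made up 3.73%, 0.684% and 11.2% of their UMIs. Just outside the limit, at a C1q sum of 8 or 9, 3 of 4 betaTG cells and all 6 WT cells held C1qa and neither other subunit. A further 2 betaTG and 15 WT droplets met the C1q limit but carried at least 15% insulin, and 1 of the betaTG ones had 449 C1q, 1167 Lyz2, 456 Ctsd and 1972 Apoe UMIs beside 22.5% insulin.

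Between the macrophages of the 2 libraries, 5 of the 10 genes were at least 2-fold higher in betaTG and 0 were at least 2-fold lower, against 2.09% and 3.17% (5.25% in either direction) of the 2493 genes with at least 50 UMIs over both libraries. Because these macrophages entered the choice of the genes, nothing is read from that count. The 5 were C3, Lyz2, Ctsd, Fabp5 and Pla2g2d. The C1q genes, Csf1r and Apoe differed by less than 1.5-fold. Levels are CPM, the UMIs of a gene scaled to the same total in each library's pooled macrophages, which in 3 prime data do not grow with gene length, and ratios are log2 of betaTG over WT after TMM scaling, which corrects for the makeup of the libraries.

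C1qa, the A chain of C1q, had 1448 UMIs (3269 CPM) in betaTG macrophages and 2210 UMIs (2675 CPM) in WT macrophages, a log2 ratio of 0.31 (95% interval 0.21 to 0.41). C1qb had 4039 CPM in betaTG and 3438 CPM in WT, a log2 ratio of 0.25 (0.17 to 0.34). C1qc had 2443 CPM in betaTG and 1957 CPM in WT, a log2 ratio of 0.34 (0.23 to 0.45). These differences moved with the gate: setting the C1q sum to at least 20 left 41 betaTG and 61 WT cells. The log2 ratios were then -0.02, -0.09 and -0.02, and the median of all genes moved from 0.03 to -0.08. A higher limit also selects on these same genes.

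Per cell, C1qa ran from 8 to 90 UMIs with a median of 28 in betaTG, and from 2 to 123 with a median of 28 in WT. C1qb ran from 6 to 97 with a median of 37 in betaTG, and from 0 to 133 with a median of 40 in WT. C1qc ran from 6 to 68 in betaTG and from 0 to 64 in WT, with a median of 21 in each. The distributions of the 3 subunits overlapped over nearly their whole range.

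Csf1r, the receptor gene at chr18:61100598-61132149, had low counts, with 0 to 15 UMIs per cell in betaTG and 0 to 17 in WT and a median of 3 in each. Its level was 386 CPM in betaTG and 318 CPM in WT, a log2 ratio of 0.30 (0.01 to 0.58), and -0.02 at a C1q sum of at least 20. Apoe, which carries lipid out of macrophages, was the most abundant of the 10 genes, with 27234 CPM in betaTG and 21154 CPM in WT. Its log2 ratio was 0.39 (0.35 to 0.42), and 0.06 at a C1q sum of at least 20. Per cell Apoe ran from 6 to 824 UMIs with a median of 265 in betaTG, and from 0 to 953 with a median of 240 in WT. At most 10 Apoe UMIs were found in 1 betaTG and 7 WT cells.

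Lyz2 had 4393 UMIs (9917 CPM) in betaTG macrophages and 1308 UMIs (1583 CPM) in WT macrophages, a log2 ratio of 2.67 (2.58 to 2.76). Per cell it ran from 2 to 1091 UMIs with a median of 33 in betaTG, and from 0 to 125 with a median of 11 in WT. At least 100 Lyz2 UMIs were found in 8 betaTG cells and 1 WT cell, while most cells of the libraries overlapped. Lyz1, the near-identical neighbour of Lyz2, had 135 UMIs in betaTG and 6 in WT, and reads of these paralogs can be split between them. Ctsd, an aspartic protease of lysosomes, had 1034 CPM in betaTG and 378 CPM in WT, a log2 ratio of 1.48 (1.26 to 1.69). Its median was 3 UMIs per cell in betaTG and 2 in WT, but its highest cells had 107 and 35. With the insulin limit at 30%, which added the betaTG droplet of 456 Ctsd UMIs and 6 WT cells, its log2 ratio was 2.53 and that of Lyz2 was 3.16.

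C3 had 117 UMIs (264 CPM) in betaTG and 8 UMIs (9.68 CPM) in WT macrophages, a log2 ratio of 4.79 (3.77 to 6.04), from 8 of 41 betaTG cells and 6 of 69 WT cells. Fabp5, a fatty acid carrier, had 133 UMIs (300.2 CPM) in betaTG and 39 UMIs (47.2 CPM) in WT, a log2 ratio of 2.69 (2.17 to 3.25), from 13 and 12 cells. Pla2g2d had 139 UMIs (314 CPM) in betaTG and 0 in WT, where the exact upper limit was 4.46 CPM. With the WT count set to 3, which is 3.63 CPM, Pla2g2d was 87.8-fold higher in betaTG. This value is not a bound, since the exact lower limit of the log2 ratio was 6.14. All 3 genes had a median of 0 UMIs per cell in both libraries, at a median depth of 10266 UMIs in betaTG and 10849 in WT, so lower levels in the other cells were not detectable. The C3 ratio moved with the gate, to a log2 of 3.39 at a C1q sum of at least 5, where WT had 21 UMIs, and 5.84 at a sum of at least 20, where WT had 3. At a sum of at least 5, Pla2g2d had 140 UMIs in betaTG and 6 in WT.

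**Figure D1:**
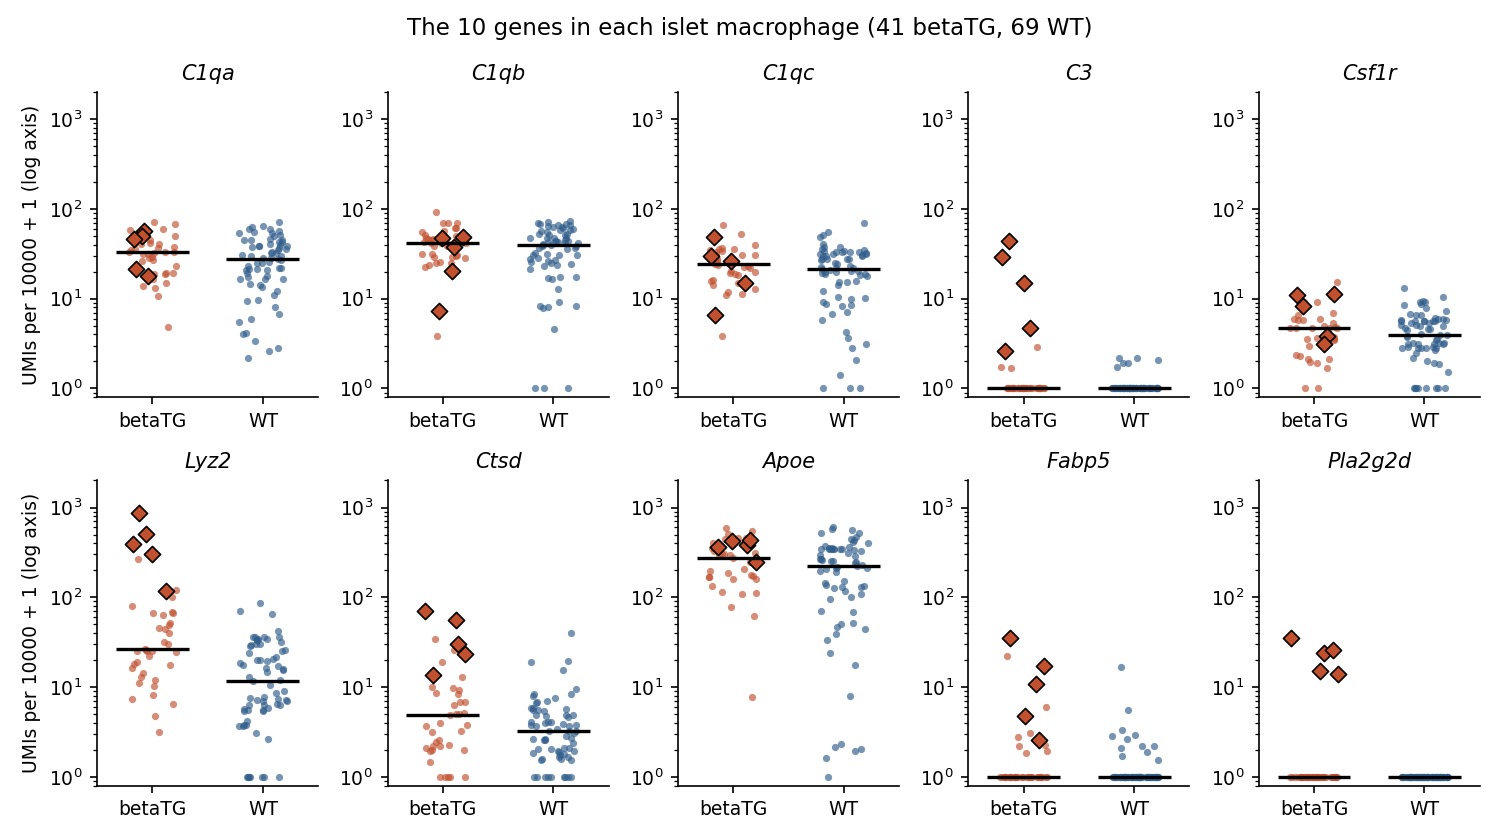
UMIs per 10000 plus 1 (log axis) of each of the 10 genes in each macrophage, betaTG on the left and WT on the right of each panel; bars are medians and diamonds are the 5 betaTG cells with at least 10 Pla2g2d UMIs. The C1q genes, Csf1r and Apoe overlap between libraries, and the diamonds hold all 139 Pla2g2d UMIs and 113 of the 117 C3 UMIs of the betaTG macrophages.

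All 139 Pla2g2d UMIs came from 5 betaTG macrophages, with 48, 43, 21, 15 and 12 UMIs. In the same order these cells held 991, 1091, 359, 321 and 108 Lyz2 UMIs, 55, 2, 39, 4 and 13 of C3, and 107, 16, 63, 24 and 27 of Ctsd. Fabp5 had 67, 2, 9, 4 and 15 UMIs in them. Together they held 2870 of the 4393 Lyz2 UMIs of all betaTG macrophages, 113 of 117 for C3, 237 of 458 for Ctsd and 97 of 133 for Fabp5. Pooled over the 5 cells, C1qa was 1.18 times, C1qb 0.785 times and C1qc 1.01 times as high in CPM as in the other 36 betaTG macrophages. All these cells had passed the gate on C1q, which limits how low the values could be. The 5 cells were not alike: the first had 87, 89 and 56 UMIs of C1qa, C1qb and C1qc in 19340. The second had 21, 8 and 7 in 12567.

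Some markers differed between these 5 cells and the rest. Adgre1 and Itgax were at 0 in all 5, against 43 and 30 UMIs in the other 36 betaTG macrophages, while Cd68 and Tyrobp were seen in all 5. Many other cells also lacked Adgre1 and Itgax, which were seen in 53.7% and 34.1% of all 41 betaTG macrophages. Cx3cr1 went the other way, with 14 UMIs from 4 of the 5 cells and a level 3.14-fold that of the other 36. Among genes with at least 20 UMIs and seen in each of the 5 cells, the highest folds over the other 36 after Pla2g2d were those of C3, at 177-fold, Timd4, a receptor for phosphatidylserine on dying cells, at 125-fold, Dnase1l3, a secreted nuclease, at 44.6-fold, and Cfp, which encodes the complement regulator properdin, at 40.8-fold. Fabp5 was at 16.9-fold, Lyz2 at 11.8-fold and Ctsd at 6.73-fold. These folds describe 5 cells of 1 library picked by their Pla2g2d count.

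Without the 5 cells, 2 of the 8 genes with at least 50 UMIs, Lyz2 and Fabp5, were still at least 2-fold higher in betaTG, and 4.48% of 2387 genes were past 2-fold in either direction. The log2 ratio was then 1.37 for Lyz2, 1.04 for Fabp5, 0.66 for Ctsd and 0.15 for C3. The Fabp5 value came from 36 UMIs in betaTG and 39 in WT, and a single betaTG cell held 23 of those 36 UMIs. The median of Fabp5 was 0 UMIs per cell in both libraries. Lyz2 also differed in the middle of the distribution, with a median of 26.5 UMIs per cell over the other 36 betaTG macrophages and 11 over the WT macrophages. Leaving the 5 cells out was decided after their values were seen.

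The WT library was not without such a cell. A WT cell, outside the gate because its C1q sum was 2, had 61 Pla2g2d, 877 Lyz2, 331 Lyz1, 15 Timd4, 20 Csf1r and 10 C3 UMIs, with 8 of Cd68, 36 of Tyrobp and none of Adgre1 or Itgax. When low-insulin cells with at least 5 Csf1r UMIs were also counted as macrophages, a choice made after seeing this cell, the gate held 42 betaTG and 70 WT cells. Pla2g2d then had 139 UMIs in betaTG and 61 in WT, and its log2 ratio was 2.14. The log2 ratio of Lyz2 was then 1.98 and that of C3 3.65. With 5 such cells in betaTG and 1 in WT, the ratios of Pla2g2d and C3 rest on the number of these rare cells in each library. Whether that number differs by genotype could not be tested with 1 library each.

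**Figure D2:**
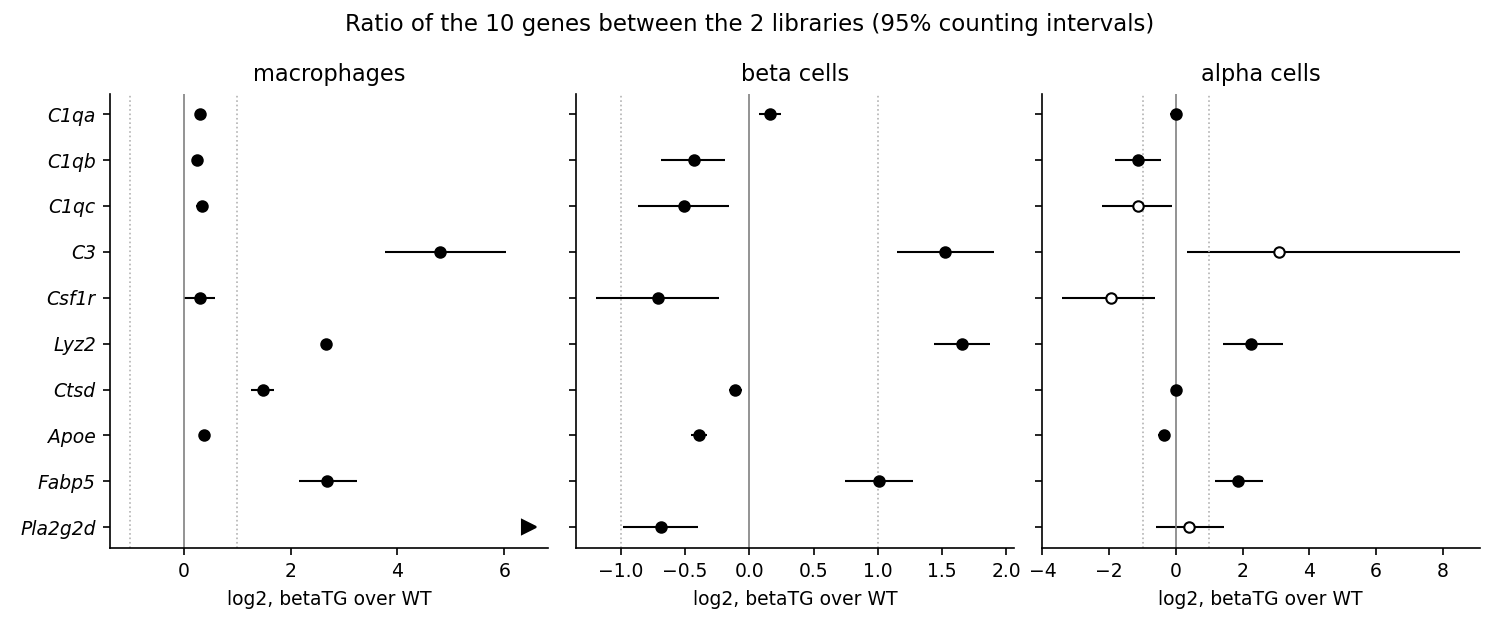
Log2 ratio of betaTG over WT for the 10 genes in macrophages, beta cells and alpha cells, with exact 95% counting intervals. Dotted lines mark 2-fold and open circles genes with under 50 UMIs over both libraries. The triangle is Pla2g2d in macrophages with its WT count of 0 set to 3. The horizontal scale differs between panels, and C3, Lyz2, Ctsd, Fabp5 and Pla2g2d lie past 2-fold in macrophages.

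The spread among macrophages was compared after each cell was thinned to 3000 UMIs, as the variance over the mean, which is 1 for counting noise alone. Over all genes with a mean of at least 0.5 it had a median of 1.40 in betaTG and 1.42 in WT. The C1q genes stood at 2.45, 3.15 and 2.499 in betaTG for C1qa, C1qb and C1qc, and at 3.62, 3.49 and 3.20 in WT. Csf1r was near counting noise, at 1.49 in betaTG and 1 in WT. Apoe was at 21.2 in betaTG and 35.7 in WT. Lyz2 reached 95.6 in betaTG and 6.67 in WT, and its 5 highest cells gave 69.3% of its UMIs in betaTG and 31.7% in WT. Ctsd was at 6.42 in betaTG and 4.49 in WT.

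Co-expression was described as Pearson's r over cells of log2(UMIs per 10000 + 1), with no p, since cells of 1 library share their preparation and depth. The C1q subunits had high values in both libraries. In betaTG r was 0.75 for C1qa with C1qb, 0.81 for C1qa with C1qc and 0.77 for C1qb with C1qc, and in WT it was 0.80, 0.86 and 0.94. The rule selects on the sum of these genes, which enters those values. Over all pairs of genes with a mean of at least 1 UMI, the median r was 0.0053 in betaTG and 0.0148 in WT, and the 5th and 95th percentiles were -0.29 and 0.31 in betaTG and -0.24 and 0.29 in WT.

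Beyond the subunits, the pattern differed between libraries. In betaTG the highest values joined C3, Lyz2, Ctsd, Fabp5 and Pla2g2d, whose 10 pairs ran from 0.61 for Ctsd with Pla2g2d to 0.87 for C3 with Pla2g2d. Without the 5 Pla2g2d-rich cells the 6 pairs that remained ran from 0.38 for C3 with Ctsd to 0.68 for C3 with Fabp5. C3 had only 4 UMIs in the other 36 cells, so its pairs rest on few counts. A single cell held 2 of these 4 UMIs, 23 of the 36 Fabp5 UMIs and 284 Lyz2 UMIs. This cell also enters the pairs with Fabp5 that follow. The pairs without C3 were at 0.45 for Ctsd with Lyz2, 0.47 for Ctsd with Fabp5 and 0.48 for Lyz2 with Fabp5. In WT the highest value outside the subunits was 0.66, for Lyz2 with Apoe, followed by pairs of C1q with Lyz2, Apoe and Csf1r. With C1qa, C1qb, C1qc and Apoe, Lyz2 had r of 0.09, -0.20, -0.10 and 0.24 in betaTG, against 0.51, 0.62, 0.62 and 0.66 in WT. Csf1r had 0.22, -0.03 and 0.06 with the 3 subunits in betaTG, against 0.46, 0.52 and 0.53 in WT. Apoe had 0.20, -0.01 and 0.28 with them in betaTG, against 0.48, 0.62 and 0.61 in WT. The WT values rested in part on the 8 cells with a C1q sum below 20, no betaTG cell being below it. Without them the values in WT with C1qa, C1qb and C1qc were 0.29, 0.17 and 0.25 for Csf1r, 0.24, 0.22 and 0.27 for Apoe, and 0.40, 0.44 and 0.42 for Lyz2, and Lyz2 with Apoe was at 0.54. The difference between libraries was not tested. Over the 45 pairs in betaTG the median r was 0.22, and 0.11 without the 5 Pla2g2d-rich cells; over the 36 defined pairs in WT it was 0.17, Pla2g2d being at 0 in every cell.

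**Figure D3:**
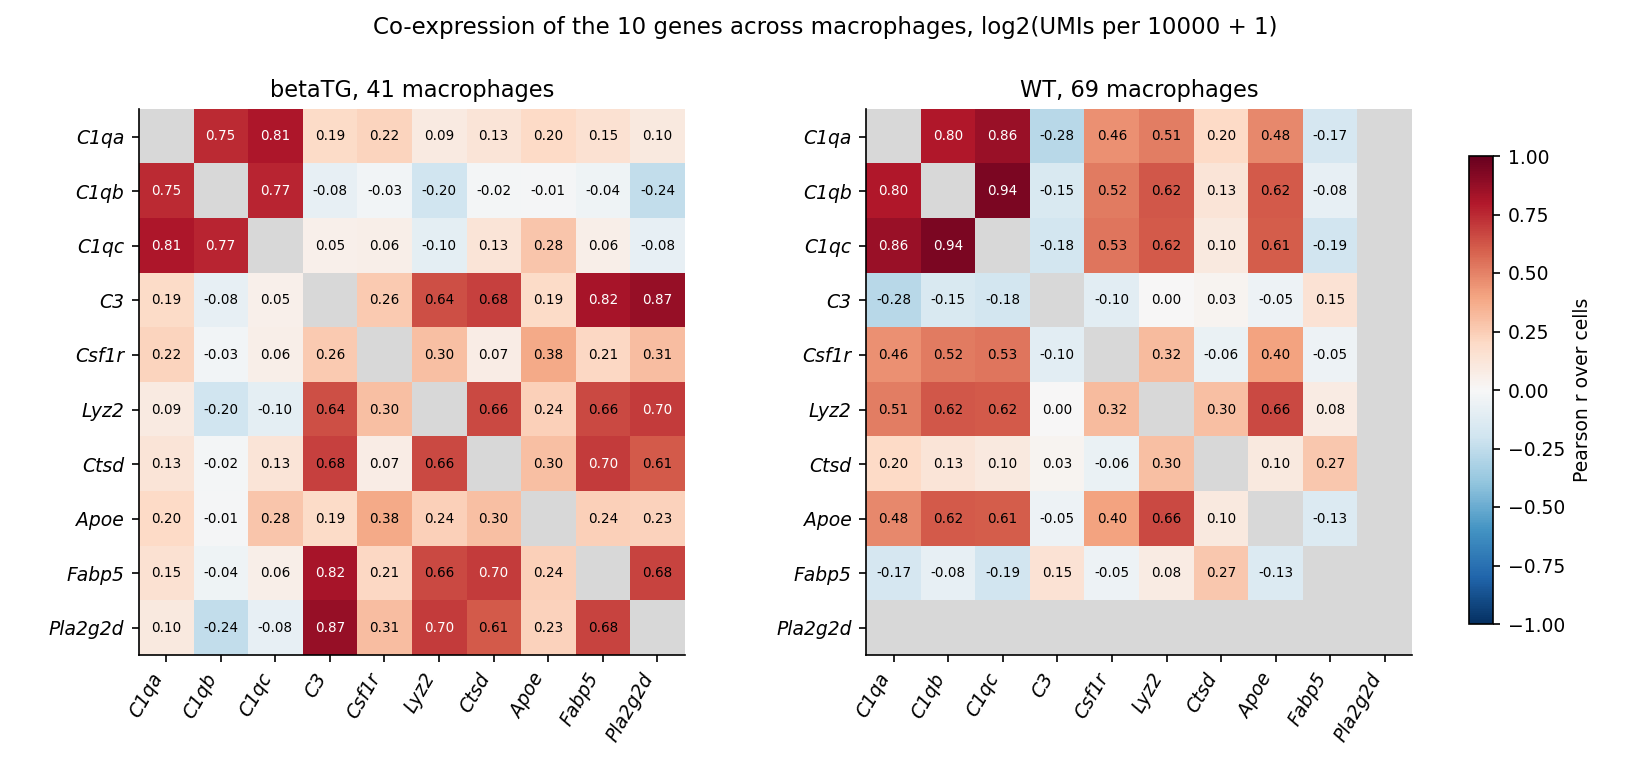
Pearson's r between the 10 genes over 41 betaTG macrophages on the left and 69 WT macrophages on the right, from -1 in blue to 1 in red. Grey squares are the diagonal and the undefined pairs with Pla2g2d in WT; the C1q block is present in both panels, and the block of C3, Lyz2, Ctsd, Fabp5 and Pla2g2d in the left one.

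Other genes of the same pathways were taken from lists written for these comparisons, and over all genes 2.09% were at least 2-fold higher and 3.17% at least 2-fold lower in betaTG. Of 44 complement genes besides C1q and C3, 8 had at least 50 UMIs in macrophages. Of these, 1 was at least 2-fold higher in betaTG, Cfp, with 135 CPM in betaTG and 16.9 CPM in WT (log2 3.02, interval 2.16 to 3.98), and 52 of its 60 betaTG UMIs came from the 5 Pla2g2d-rich cells. Another 1 was at least 2-fold lower, Clu, which encodes clusterin, an inhibitor of terminal complement, with 56.4 CPM in betaTG and 211 CPM in WT (log2 -1.88, -2.54 to -1.27). The median of the 8 was -0.07, and that of all genes 0.03.

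Of 59 lysosome genes besides Lyz2 and Ctsd, 37 could be compared, and 1 was at least 2-fold higher in betaTG and 0 at least 2-fold lower. That gene was Man2b1, a mannosidase, with 129 CPM in betaTG and 62.9 CPM in WT (log2 1.05). Next were the proteases Tpp1, at a log2 ratio of 0.96, Ctsc at 0.95 and Ctsh at 0.86. Of the 39 betaTG UMIs of Tpp1, 21 came from the 5 Pla2g2d-rich cells. In all, 29 of the 37 (78.4%) lay above 0, against 53.4% of all genes. Their median was 0.24, against 0.03 over all genes. This was not particular to the lysosome list: 12 of 16 macrophage markers (75%) and 7 of 9 lipid handling genes (77.8%) also lay above 0. The medians of these 2 lists were 0.22 and 0.32. Of the 8 complement genes 3 (37.5%) lay above 0, and of 13 genes around the CSF1 receptor 7 (53.8%). No test was made of the lists.

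Of 28 genes of lipid handling, 9 could be compared, and 1 was at least 2-fold lower, the secreted phosphoprotein Spp1, with 88.0 CPM in betaTG and 277 CPM in WT (log2 -1.63). Of 19 phospholipase A2 genes 2 could be compared, and Pla2g7, a secreted phospholipase that cleaves platelet-activating factor, had 163 CPM in betaTG and 64.1 CPM in WT (log2 1.36). Among 22 genes around the CSF1 receptor 13 could be compared, and Sirpa, the receptor for CD47, was the 1 gene past 2-fold (log2 1.12). Irf8, a myeloid transcription factor, had 176 CPM in betaTG and 317 CPM in WT (log2 -0.83). Of 18 macrophage markers 16 could be compared, and 1 was past 2-fold, the chemokine receptor gene Cx3cr1, with 94.8 CPM in betaTG and 33.9 CPM in WT (log2 1.51).

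Transcripts of other cells in the macrophages also differed between libraries. Summed over the endothelial list, 7 of 7 genes in the table, the level was 15.8 CPM in betaTG and 202 CPM in WT. The 8 mesenchymal markers summed to 0 in betaTG and 108 CPM in WT, the 8 acinar markers to 178 CPM in betaTG and 14.5 CPM in WT, and the 6 ductal ones to 108 CPM in betaTG and 358 CPM in WT, of which Spp1 was part. The endothelial and mesenchymal UMIs in WT came from few cells. No endothelial gene was seen in more than 15.9% of WT macrophages, and no mesenchymal gene in more than 8.70%. Iapp, a beta cell peptide gene, had 4779 CPM in betaTG and 14402 CPM in WT, and Ppy, the hormone gene of gamma cells, had 2765 CPM in betaTG and 9728 CPM in WT. The 6 neutrophil markers summed to 24.8 CPM in betaTG and 12.1 CPM in WT, and the 5 monocyte markers to 42.9 CPM in betaTG and 42.4 CPM in WT. The part of these transcripts in the ratios of the 10 genes was not tested.

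In the endocrine cells most of the 10 genes had low levels. Summed over C1qa, C1qb and C1qc, the level in beta cells was 28.0 CPM in betaTG and 33.6 CPM in WT, or 0.288% and 0.416% of the macrophage level. Beta cells were deeper than macrophages, with a median of 29075.5 UMIs in betaTG and 23171 in WT. In betaTG the beta cell level was at most 1.21% of the macrophage level for 9 of the 10 genes. In WT it was 10.4% for C3 and 4.76% for Fabp5, and Pla2g2d had 3.48 CPM in WT beta cells, which held 70% of its WT UMIs, against 0 in WT macrophages. Ctsd had the highest share in both libraries among genes with UMIs in macrophages: its beta cell level was 65.4 CPM in betaTG and 88.0 CPM in WT, or 6.32% and 23.3% of that in macrophages. Ctsd is a lysosomal enzyme of most cells, and beta cells held 64.4% of all its UMIs in betaTG and 75.5% in WT.

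**Figure D4:**
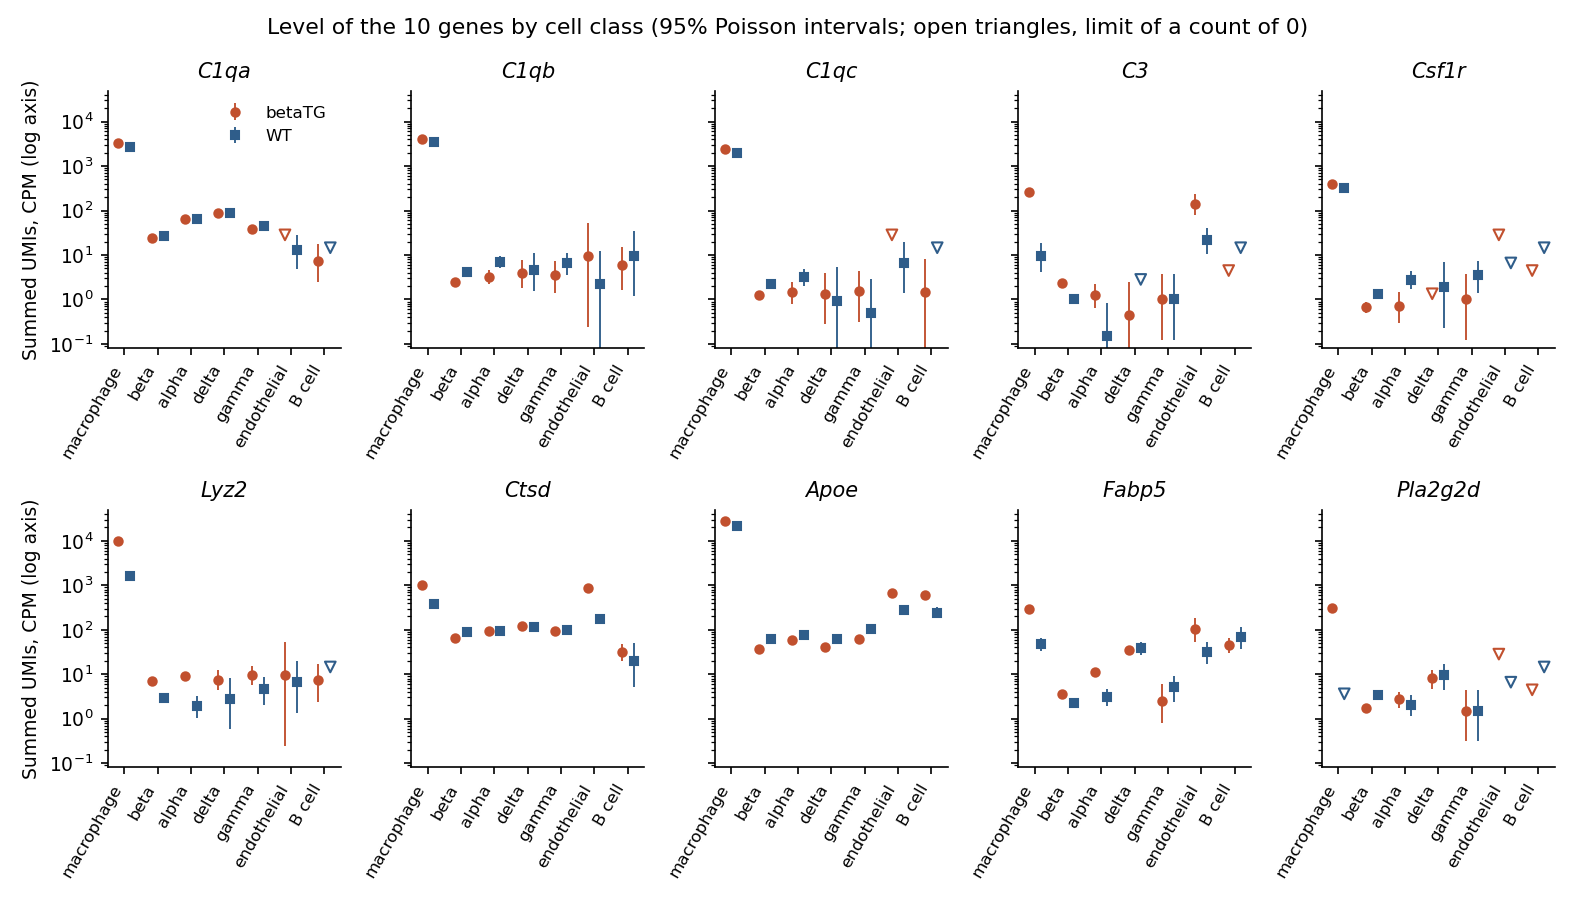
Level in CPM (log axis) of the 10 genes in 7 cell classes, with exact Poisson 95% intervals. In each pair betaTG is in red on the left and WT in blue on the right. Open triangles show a count of 0 set to 3 counts over the group. In beta cells C1qb is at 0.0623% of its macrophage level in betaTG and 0.123% in WT, C1qa at 0.743% and 1.01%, and Ctsd at 6.32% and 23.3%.

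Between genotypes, 3 of the 10 genes were at least 2-fold higher in betaTG beta cells and 0 at least 2-fold lower, against 2.72% and 1.34% (4.06% in either direction) of 12991 genes. Lyz2 had 7.23 CPM in betaTG and 2.87 CPM in WT beta cells, a log2 ratio of 1.65 (1.44 to 1.87). C3 had 2.31 CPM in betaTG and 1.005 CPM in WT (log2 1.52, 1.15 to 1.90), and Fabp5 had 3.62 CPM in betaTG and 2.25 CPM in WT (log2 1.01, 0.74 to 1.28). These were 3 of the 5 genes past 2-fold in macrophages.

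The other genes were lower or little changed in betaTG beta cells. Apoe had 37.8 CPM in betaTG and 61.8 CPM in WT (log2 -0.39), C1qb 2.52 CPM in betaTG and 4.24 CPM in WT (log2 -0.43) and C1qc 1.24 CPM in betaTG and 2.20 CPM in WT (log2 -0.50). Csf1r had 0.661 CPM in betaTG and 1.35 CPM in WT (log2 -0.71), Pla2g2d 1.73 CPM in betaTG and 3.48 CPM in WT (log2 -0.69), and Ctsd a log2 ratio of -0.11. C1qa was the reverse at 0.16, and this sign depended on scaling. Insulin took a median of 60.4% of UMIs in betaTG beta cells and 50.3% in WT beta cells, and scaling to total UMIs moved the median of all genes to -0.34. On that scale C1qa was at -0.16, Fabp5 at 0.69, and Csf1r and Pla2g2d past 2-fold lower at -1.03 and -1.01.

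In alpha cells, the glucagon-secreting cells, 6 of the 10 genes had at least 50 UMIs over both libraries. Of these 2 were at least 2-fold higher in betaTG and 1 at least 2-fold lower, against 1.06% and 0.474% (1.53% in either direction) of 9925 genes. Lyz2 had 9.06 CPM in betaTG and 1.92 CPM in WT (log2 2.25, 1.40 to 3.22), and Fabp5 11.1 CPM in betaTG and 3.10 CPM in WT (log2 1.86, 1.17 to 2.61). C1qb had 3.23 CPM in betaTG and 7.08 CPM in WT (log2 -1.12, -1.82 to -0.44), from 31 and 48 UMIs. C1qa and Ctsd were level, at log2 ratios of 0.01 each, and Apoe was at -0.35.

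The balance of C1qa to C1qb in endocrine cells was not that of the macrophages. In macrophages there were 0.809 C1qa UMIs for each C1qb UMI in betaTG (0.755 to 0.868) and 0.778 in WT (0.735 to 0.823). In beta cells the ratio was 9.65 in betaTG (8.38 to 11.1) and 6.39 in WT (5.72 to 7.16), and in alpha cells 19.5 in betaTG (13.6 to 29.0) and 8.90 in WT (6.59 to 12.3). C1qc per C1qb in beta cells had an interval that held the macrophage value, with 0.605 in betaTG and 0.569 in WT macrophages against 0.493 (0.387 to 0.624) in betaTG and 0.518 (0.432 to 0.620) in WT beta cells. In alpha cells C1qc per C1qb was 0.452 (0.222 to 0.874) in betaTG and 0.458 (0.263 to 0.774) in WT. Gamma cells had 0.429 (0.0715 to 1.88) in betaTG and 0.0769 (0.00181 to 0.512) in WT, the WT one from 1 C1qc and 13 C1qb UMIs and below the WT macrophage value. Apoe had a higher ratio in beta cells than in macrophages, with 6.74 UMIs per C1qb UMI in betaTG and 6.15 in WT macrophages, against 15 in betaTG and 14.6 in WT beta cells.

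For Lyz2 the betaTG values were near each other, with 2.46 UMIs per C1qb UMI in macrophages, 2.87 (2.46 to 3.37) in beta cells and 2.81 (1.84 to 4.38) in alpha cells. In WT it stood at 0.460 in macrophages, 0.677 (0.573 to 0.799) in beta cells and 0.271 (0.135 to 0.508) in alpha cells. Pla2g2d had 0.0777 UMIs per C1qb UMI in macrophages and 0.687 (0.554 to 0.850) in beta cells of betaTG, and 0 in macrophages and 0.819 (0.6995 to 0.958) in beta cells of WT.

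**Figure D5:**
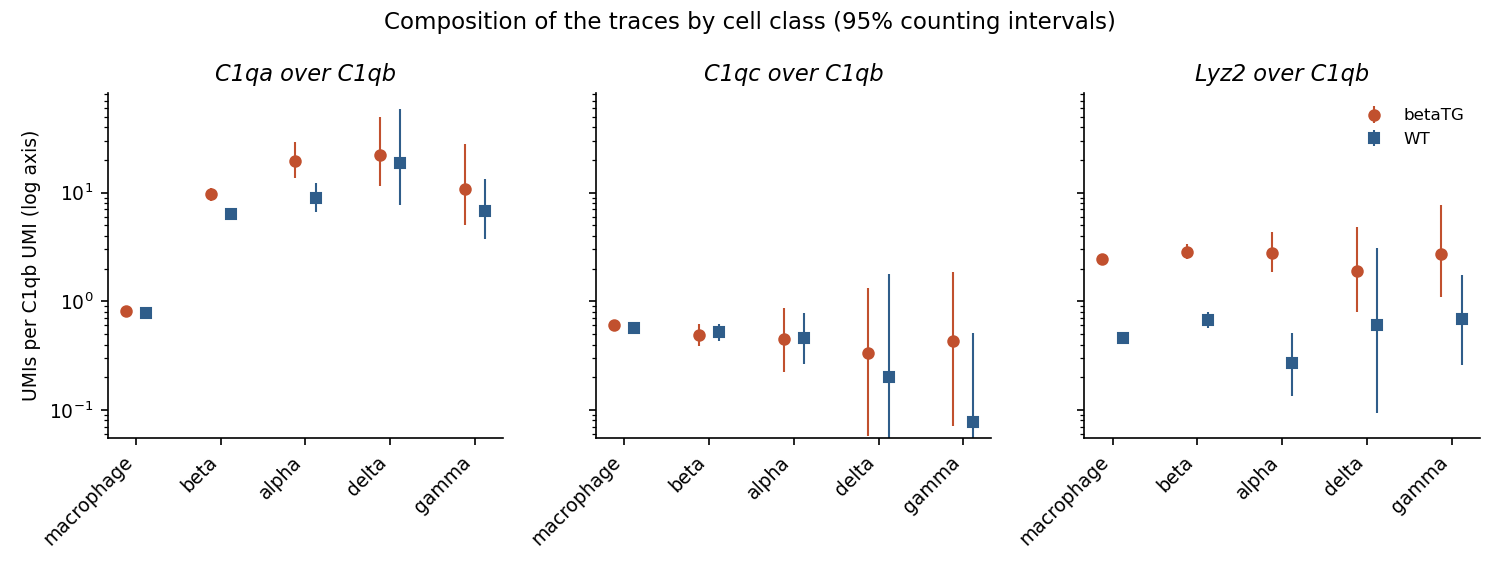
UMIs of C1qa, C1qc and Lyz2 per C1qb UMI (log axis) in 5 cell classes, betaTG in red on the left and WT in blue on the right of each pair, with exact 95% counting intervals. C1qa per C1qb is near 0.8 in macrophages and above 6 in every endocrine class, C1qc per C1qb lies within its interval of the macrophage value in beta and alpha cells, and Lyz2 per C1qb is higher in betaTG than in WT in macrophages, beta and alpha cells.

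C1qa differed between endocrine classes and from other cells, and the gap between beta and alpha cells depended on the denominator. It was at 24.3 CPM in betaTG and 27.1 CPM in WT beta cells, 63.1 and 63.0 CPM in alpha cells, and 89.6 and 87.5 CPM in delta cells, which secrete somatostatin. Thinning to 3000 UMIs kept insulin UMIs in the count, so it did not remove this dependence. Thinned cells had a C1qa UMI in 6.94% (betaTG) and 7.73% (WT) of beta cells, 18.5% and 18.7% of alpha cells, and 20.5% and 22.5% of delta cells. B cells, which should lack the gene, had one in 2.17% of 46 cells in betaTG and 0% of 18 cells in WT, at median depths of 11127.5 and 8086 UMIs before thinning. Endothelial cells had one in 0% of 13 cells in betaTG and 5.36% of 56 cells in WT. Before thinning the shares were 47.5% in betaTG and 43.9% in WT beta cells, 55.8% and 56.7% in alpha cells, and 10.9% in betaTG and 0% in WT B cells.

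At least 3 C1qa UMIs were found in 194 of 2710 betaTG and 187 of 3351 WT beta cells, and 171 and 151 of these held no C1qb or C1qc UMI. The variance over the mean of C1qa in beta cells was 1.46 in betaTG and 1.56 in WT, against 1.04 in betaTG and 0.999 in WT for C1qb. Beta, alpha and delta cells together held more C1qa UMIs than the macrophages did: beta cells alone had 42.8% in betaTG and 39.8% in WT, and macrophages 29.6% in betaTG and 38.4% in WT. For C1qb the macrophages had 76.9% in betaTG and 79.5% in WT. The source of the C1qa signal in endocrine cells was not tested.

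C3 had its highest level outside the macrophages. The few cells with mesenchymal markers, 9 in betaTG and 5 in WT, had 2153 CPM in betaTG and 3091 CPM in WT, and held 25.7% and 60% of all C3 UMIs. Endothelial cells had 142 CPM in betaTG and 22.1 CPM in WT, from 13 and 56 cells.

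Across 14 profiles, 7 cell classes in 2 libraries, the genes whose log2(CPM + 10) was most like that of the members had r from 0.906 to 0.999. For the C1q sum these were Gas2l3 (r = 0.98), Qpct and Ppfia4, for C1qb Slamf8, Wfdc17 and C3ar1, the receptor for the C3a fragment, and for C1qc Clec4e, Trem2 and Il1b. Lyz2 was closest to Ccl7, Clec4a2 and Igsf6, and Csf1r to Bcl2a1a, Ms4a6d and Zmynd15. Apoe was closest to Icosl, Fth1 and Ms4a6b, and Ctsd to Pcyt1a, Tmem176b and Timp2. C3 was closest to Igf1, Cfb and Pdlim4, Fabp5 to Iqgap1, Fuca1 and Tspo, and Pla2g2d to Prg3, Timd4 and Cd4.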

How the data were processed

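Both libraries were made with 10x Chromium 3 prime version 2 reagents, per the labels' protocols. The submitters' processing notes list mm10, STAR 2.5.1b and Cell Ranger 2.1.0. The deposited matrices hold raw UMI counts for every gene in every barcode, which the authors did not normalize. No source used here names the annotation release or the filter behind the deposited barcodes. The 10 genes, the gene lists and the class limits were chosen with earlier results of these data known.

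Cells were kept with at least 500 genes, at least 1000 UMIs and at most 10% mitochondrial UMIs, which removed 15 betaTG and 20 WT barcodes. Macrophages were gated as the report states. Beta cells had at least 20% insulin UMIs and below 2% of Gcg, Sst and Ppy each. Alpha cells had at least 5% Gcg, below 15% insulin, below 2% Sst and below 5% Ppy. Both had a C1q sum below 10. Delta, gamma, endothelial, B, T and mesenchymal cells were gated on Sst, Ppy or marker sums, classes under 10 cells are not described except for C3, and cells in 0 or several classes stayed unclassed (367 betaTG, 405 WT). No clustering was used. Scrublet in scanpy 1.11.5 called 17 betaTG (0.410%) and 5 WT (0.111%) cells, under 0.5% of a library, so its calls were not used. The highest 4% of scores were left out as an alternative; 0 macrophages were among them.

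UMIs were summed per class and library, scaled with TMM (edgeR 4.0.16 in R 4.3.3, used for scaling only) and compared as log2 ratios with exact conditional binomial intervals at 95%. Levels have exact Poisson and shares exact Clopper-Pearson intervals. For folds and figures a count of 0 was set to 3 counts over the group, which is below its exact 95% upper limit. Thinning drew 3000 UMIs per cell, and no kept cell was shallower. With 1 library a group there are no p-values. Named genes were the 10 members, up to 4 genes per list, those of largest log2 ratio among genes with at least 50 UMIs, and the 3 genes of highest Pearson's r for each member among genes reaching 50 CPM. Genes of the Pla2g2d-rich cells were named after their values were seen. The ratio, thinning and correlation steps were tested on simulated data. Python 3.11.15, numpy 2.4.6, scipy 1.17.1, pandas 2.3.3 and matplotlib 3.10.9 were used. Alternatives covered the scaling, the minimum of UMIs, the gates, the cell filter, the doublet scores and the measure of correlation. Gene positions are GENCODE models on GRCm38, matched by gene ID for 10 of 10 members, and promoters and the miRNA are from RefSeq.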

Additional observations from a re-analysis of the deposited data

Results flagged for a closer look

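For C1qb, C1qc, Ctsd, Apoe, Csf1r and Pla2g2d the log2 ratio of betaTG over WT had opposite signs in macrophages and beta cells. For C1qb and Apoe this also held in alpha cells. In each case the counting intervals lay on opposite sides of 0. Ctsd was at 0.01 in alpha cells, the same sign as in macrophages. With under 50 UMIs in alpha cells, C1qc was at -1.14, Csf1r at -1.93 and Pla2g2d at 0.40. No share of all genes with this pattern is set beside these genes, so nothing is read from their number. The difference between classes was not tested across animals. C1qb was at 0.25 in macrophages, -0.43 in beta cells and -1.12 in alpha cells, and C1qc at 0.34 in macrophages and -0.50 in beta cells. Ctsd was at 1.48 in macrophages and -0.11 in beta cells. Apoe was at 0.39 in macrophages, -0.39 in beta cells and -0.35 in alpha cells. Csf1r was at 0.30 in macrophages and -0.71 in beta cells. Pla2g2d was at 6.46 in macrophages, with its WT count of 0 set to 3, and at -0.69 in beta cells. When the C1q sum had to reach 20, the macrophage values of C1qb, C1qc and Csf1r were below 0 and that of Apoe was 0.06. The median of all genes was then -0.08. All Pla2g2d UMIs of the betaTG macrophages came from 5 cells.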

How the results depend on the processing

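The 5 genes past 2-fold in macrophages stayed 5 under every other scaling, minimum, filter and gate tried, and were 2 without the Pla2g2d-rich cells, an alternative chosen after seeing the data. In alpha cells the 3 genes past 2-fold were 6 with no minimum of UMIs, 3 in each direction, where genes under 50 UMIs entered. In beta cells 2 to 4 genes were past 2-fold under the settings tried. With no minimum, 2283, 2110 and 1583 of all genes were past 2-fold in macrophages, beta and alpha cells, against 131, 527 and 152. The median correlation of member pairs moved to 0.11 in betaTG without the Pla2g2d-rich cells, and to 0.0627 in WT with a pseudocount of 0.1. The C1q sum in beta cells was 33.4 CPM in betaTG and 38.3 CPM in WT with no upper limit on C1q, 26.4 and 30.8 CPM with a limit of 5, and 70.3 and 67.9 CPM of UMIs outside insulin, by construction of the denominator. In WT alpha cells it was 66.7 CPM with a limit of 5, against 73.4 CPM. Of the other values of this kind, 58 values, and 11 under settings added after seeing the data, stayed within their limits, and no called value changed sign. Of the single-gene ratios in macrophages, 86 values stayed within their counting interval and 24 did not. With C1q at 20 or more, the small differences of the C1q genes, Csf1r and Apoe were between -0.09 and 0.06, and the median of all genes was -0.08. No paired analysis was possible because each genotype had 1 library. The depth of 442978 betaTG and 826236 WT UMIs over all macrophages limits genes under 50 UMIs, and the 8 WT cells just inside the gate enter every WT macrophage value.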
